A study of Mus musculus with 28 samples.

Results

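Phosphofructokinase-1 (PFK-1) and the bifunctional enzymes that control it, the PFKFB family, are encoded by 7 genes in the mouse. These are Pfkl, Pfkm and Pfkp for the liver, muscle and platelet types of PFK-1, and Pfkfb1, Pfkfb2, Pfkfb3 and Pfkfb4 for the regulators. They were chosen by name, and all 7 were found among the 54532 genes counted. Their RNA was sequenced in bulk from 28 macrophage cultures (BMDMs), grown from bone marrow of C57 mice aged 8 to 12 weeks (C57/B6JB in the methods) with the growth factor M-CSF. Control cultures received PBS, VWF cultures received plasma-derived von Willebrand factor (pd-VWF, a clotting glycoprotein) at 10 µg/ml, and LPS cultures received bacterial lipopolysaccharide at 100 ng/ml. All cultures were kept in medium with added calcium chloride and were harvested at 3.5 h or 16 h. At each time there were 5 control, 5 VWF and 4 LPS cultures. They are numbered as biological replicates, but the mouse behind each culture is not given in the labels, so p values measure the spread between these cultures.

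PFK-1 converts fructose 6-phosphate to fructose 1,6-bisphosphate, the committed step of glycolysis, and works as a tetramer of the L, M and P subunits. Its strongest activator is fructose 2,6-bisphosphate, which PFKFB enzymes both make with a kinase domain and remove with a phosphatase domain. The PFKFB3 enzyme is known for a very high ratio of kinase to phosphatase activity, whereas PFKFB1 is the liver form, PFKFB2 is best known from heart, and PFKFB4 was first described in testis and is widely induced by hypoxia. Activated macrophages depend on glycolysis for energy, and Pfkfb3 and Pfkfb4 are known targets of the transcription factor HIF-1, which binds DNA at sites built around the letters ACGTG or GCGTG.

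The annotation placed the 7 genes on 7 chromosomes of the mouse genome GRCm38. Pfkl (ENSMUSG00000020277) lies at chr10:77986947-78010083 on the minus strand, Pfkm (ENSMUSG00000033065) at chr15:98092589-98132451 on the plus strand and Pfkp (ENSMUSG00000021196) at chr13:6579768-6648777 on the minus strand. Pfkfb1 (ENSMUSG00000025271) lies at chrX:150588229-150643878 on the plus strand and Pfkfb2 (ENSMUSG00000026409) at chr1:130689182-130729253 on the minus strand. Pfkfb3 (ENSMUSG00000026773) lies at chr2:11471433-11554077 on the minus strand and Pfkfb4 (ENSMUSG00000025648) at chr9:108991778-109032228 on the plus strand. Of the merged exon length, 10.2% of Pfkm and 17.4% of Pfkfb2 overlap another gene on the same strand (Gm26513 and Gm29427), and 5.58% of Pfkp overlaps Pitrm1 on the opposite strand. The strand setting of the counting is not given in the sources used here, so reads in these stretches cannot be assigned to 1 gene with certainty. Gene-level counts give the shares of these paralogous genes, not of their spliced transcripts.

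The promoters of Pfkfb3 and Pfkfb4 are shown because these 2 regulators held most of the PFKFB signal in every group. RefSeq (GRCm38.p6) gives 2 start sites for Pfkfb3 and 1 for Pfkfb4, and the 250 bases before each start site were searched for ACGTG on either strand, which overlaps the E-box CACGTG and was counted once there, and for GCGTG on either strand. Capitals mark the ACGTG matches only. The windows are chr2:11553930-11554179 (minus strand) and chr2:11502091-11502340 (minus strand) for Pfkfb3 and chr9:108991652-108991901 (plus strand) for Pfkfb4.
Pfkfb3, upstream start site: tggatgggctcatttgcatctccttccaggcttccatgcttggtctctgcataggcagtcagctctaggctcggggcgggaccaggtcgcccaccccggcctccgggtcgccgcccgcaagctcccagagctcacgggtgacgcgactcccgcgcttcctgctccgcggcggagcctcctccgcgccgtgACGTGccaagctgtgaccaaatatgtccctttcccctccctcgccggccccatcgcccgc
Pfkfb3, downstream start site: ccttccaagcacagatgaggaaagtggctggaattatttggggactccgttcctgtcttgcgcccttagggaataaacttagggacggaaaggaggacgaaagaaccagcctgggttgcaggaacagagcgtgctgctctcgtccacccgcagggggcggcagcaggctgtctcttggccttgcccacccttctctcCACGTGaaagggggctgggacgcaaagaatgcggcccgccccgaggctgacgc
Pfkfb4: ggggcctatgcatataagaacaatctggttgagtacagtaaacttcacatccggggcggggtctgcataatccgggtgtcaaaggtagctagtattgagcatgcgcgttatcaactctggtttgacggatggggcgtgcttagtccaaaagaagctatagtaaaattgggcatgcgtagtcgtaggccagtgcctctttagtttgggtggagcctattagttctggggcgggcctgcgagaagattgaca
ACGTG began 60 bases before the upstream Pfkfb3 start site. At the downstream one it was part of a CACGTG that began 53 bases before the start site. ACGTG was not in the Pfkfb4 window, nor in the single windows of Pfkl and Pfkp or the 4 windows of Pfkfb1, and 2 of 4 Pfkm and 2 of 3 Pfkfb2 windows held it. GCGTG was in the Pfkfb4, Pfkl and Pfkp windows, in the downstream Pfkfb3 window, and in 1 of 4 Pfkfb1, 2 of 4 Pfkm and 2 of 3 Pfkfb2 windows. Of 32851 windows of this length, 16.6% held ACGTG and 28.2% held GCGTG. A match describes the letters only, and binding was not measured.

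Total counts per culture lay between 41131209 and 77699206. TMM factors, which correct for composition, lay between 0.729 and 0.845 in LPS cultures and between 0.944 and 1.19 in the others. Without them the median log2 fold change of all genes moved to -0.55 for LPS against control at 3.5 h and -0.59 at 16 h, -0.22 for VWF against control at 3.5 h, and 0.32 and 0.46 for VWF against LPS at 3.5 h and 16 h, so differences are reported relative to the TMM scale. Replicate 5 of the 16 h controls stood apart, with a TMM factor of 0.944 against 1.17 to 1.19 in the other 4, and values without it are given where it matters. Replicate 4 of the 16 h LPS cultures also stood apart, with the lowest TMM factor of all, 0.729. Its chi-square per degree of freedom against the other LPS cultures of that time was 410 to 709, beside 67.5 to 142 among those. It was the lowest of the 16 h LPS cultures for Pfkp, Pfkfb1, Pfkfb3 and Pfkfb4. The 8 macrophage markers, led by Lyz2, summed to at least 7670 TPM in every culture, and to 7670 to 36790 TPM in the 16 h controls. Single markers went in both directions. Cd14 averaged 924 TPM in the 3.5 h controls and 4144 TPM with VWF, and Mertk 61.5 and 8.25 TPM. The 3 T cell, 3 B cell and 3 erythroid markers summed to at most 0.661 TPM each. The 3 dendritic cell markers, led by Xcr1, summed to 0.548 to 0.852 TPM in the 3.5 h controls but to 8.11 to 9.98 TPM with VWF and 10.3 to 11.9 TPM with LPS at 3.5 h, and none of the 3 was at 0 throughout a group. At 16 h this sum was 0.309 to 0.685 TPM in controls, 0.545 to 1.56 TPM with VWF and 6.68 to 11.4 TPM with LPS. Xcr1 carried these rises, as Flt3 stayed at or under 0.0670 TPM and Zbtb46 at or under 1.23 TPM in every culture. Of the 5 neutrophil markers Camp led, and their sum was 7.30 to 12.4 TPM with VWF at 16 h against 0.497 to 3.93 TPM in the controls of that time. Camp averaged 7.84 TPM in that VWF group, and Ly6g, Elane, Mpo and Ltf at most 0.802 TPM each. The 3 megakaryocyte markers summed to 0.399 to 2.20 TPM and the 3 skeletal muscle markers to at most 4.11 TPM. The 3 stromal markers varied between 3.23 and 134 TPM, with overlapping ranges in all groups. The part of these cells in the results was not tested, and in bulk RNA a change in the number of cells of a type cannot be told apart from a change in RNA per cell.

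Each comparison tested the genes that reached 10 TPM (a level per exon length and library) in at least 1 of its cultures, and a gene was called at an adjusted p under 0.05 with a fold change over 2, by edgeR's quasi-likelihood test with Benjamini-Hochberg adjustment over all genes tested. At 3.5 h, 4 of the 7 members (Pfkl, Pfkp, Pfkfb3 and Pfkfb4) entered the test. With VWF against control 2 of them rose, Pfkl and Pfkfb3, where 14.7% of all genes tested were called and 43.6% passed the adjusted p alone. With LPS against control only Pfkfb4 was called among the 4, lower, beside 24.5% of all genes called and 65.7% past the adjusted p. Between VWF and LPS, Pfkl and Pfkfb4 were called, both higher with VWF, beside 11.4% and 50.2% of all genes. Pfkm, Pfkfb1 and Pfkfb2 stayed under 10 TPM in all cultures at this time, and their values come from the same test with edgeR's filterByExpr, which keeps lower counts. In that fit 27.5% of genes were called for LPS against control and 12.7% for VWF against LPS. VWF and LPS were set against the same control cultures at each time, so the comparisons are not independent.

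At 16 h Pfkm also passed the filter, so that 5 members were tested. Pfkp was the only one of the 5 called with VWF against control, where it fell, beside 8.71% of all genes called and 27.7% past the adjusted p alone. LPS against control gave 2 calls, Pfkl and Pfkfb3, both higher, beside 27.6% and 53.7% of all genes. On library size alone there were 3 calls, Pfkfb3 higher and Pfkm and Pfkfb4 lower, and Pfkl was not called. VWF against LPS also gave 2, Pfkp and Pfkfb3, both lower with VWF, beside 25.5% and 60.5% (27.1% called in the fit with filterByExpr). The median log2 fold change of the members tested was 0.69 for VWF and 0.25 for LPS against control at 3.5 h, and 0.05 and 0.52 at 16 h, beside medians of all genes between -0.03 and -0.01.

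**Figure D1:**
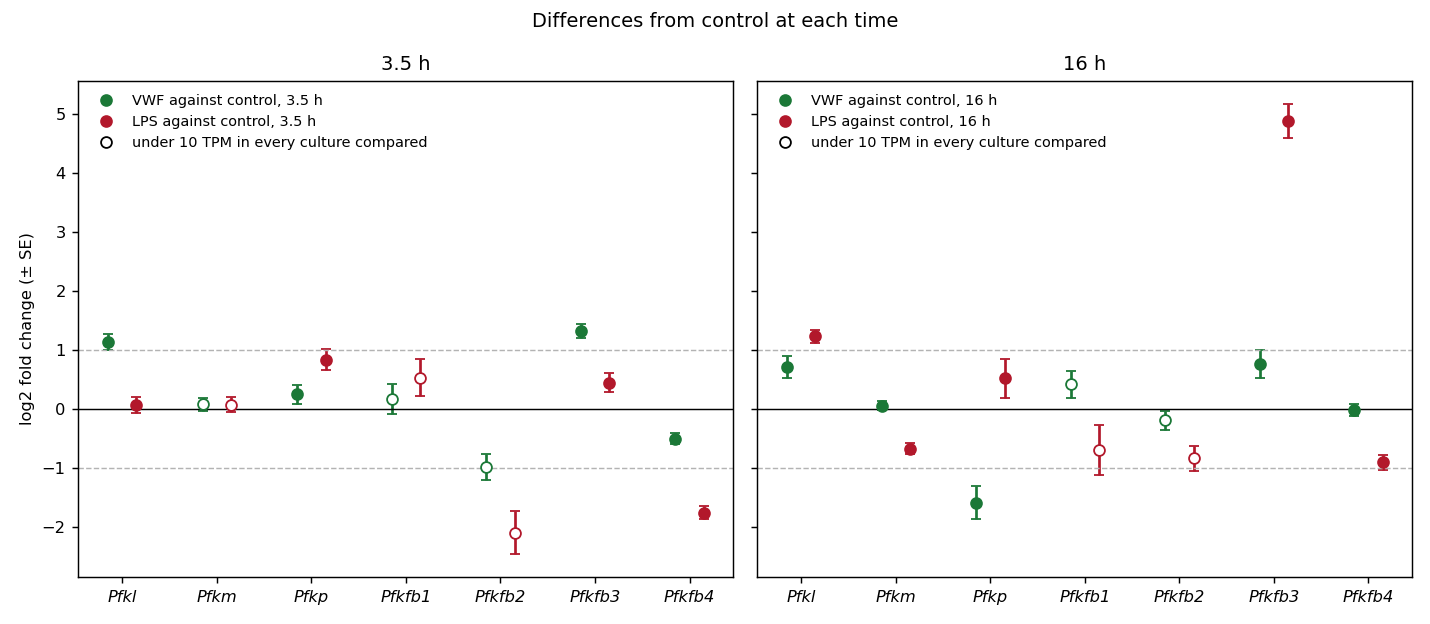
Log2 fold change of each member (vertical axis, points with standard errors) for VWF and LPS against control at 3.5 h (left) and 16 h (right). Open points are members under 10 TPM in every culture compared, fitted with filterByExpr, and dashed lines mark a fold of 2. Pfkfb3 with LPS at 16 h stands at 4.89, far above every other point, and the lowest points are Pfkfb2 and Pfkfb4 with LPS at 3.5 h and Pfkp with VWF at 16 h.

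Pfkl, the liver-type subunit, was the PFK-1 gene that rose with VWF early and with LPS late. At 3.5 h it measured 56.8, 52.3, 48.8, 65.8 and 42.3 CPM (counts scaled by library size and TMM factor) in the 5 controls, and 111, 101.8, 111, 148 and 105 CPM with VWF. The LPS cultures held 55.8, 48.0, 48.7 and 67.3 CPM. All VWF cultures were above all controls and all LPS cultures, whereas the LPS and control ranges overlapped. The rise with VWF was 2.20-fold (log2 1.13 ± 0.13 SE, edgeR adjusted p = 2.67e-05), and VWF exceeded LPS by 2.13-fold (log2 1.09 ± 0.14, edgeR adjusted p = 9.37e-05). Without replicate 4 of the VWF group, the highest, the second value was 0.98 on the log2 scale and under the fold threshold. On library size alone the VWF to control difference was 0.91 with an edgeR adjusted p of 0.000173, also under it. LPS against control at 3.5 h gave log2 0.07 ± 0.14 (edgeR adjusted p = 0.689), and this value was -0.47 on library size alone.

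At 16 h the Pfkl values of the controls were 121, 114, 89.6, 108 and 101 CPM, and those of the LPS cultures were 246, 262, 208 and 259 CPM. VWF cultures spread over 223, 176, 135, 223 and 116 CPM, between the other groups and overlapping both. LPS raised Pfkl 2.35-fold (log2 1.23 ± 0.11, edgeR adjusted p = 1.26e-05), a log2 value of 0.66 on library size alone. VWF against control was 1.63-fold (log2 0.70 ± 0.19, edgeR adjusted p = 0.0168), under the fold threshold. Between VWF and LPS the log2 difference was -0.48 ± 0.20 (edgeR adjusted p = 0.0580). With the replicate number as a block it was -0.39 (edgeR adjusted p = 0.00688), still under a fold of 2. Whether equal numbers pair these cultures is not given in the labels. The effect of LPS on Pfkl differed between the times by 1.18 ± 0.19 on the log2 scale (edgeR adjusted p = 8.40e-05) and that of VWF by -0.40 ± 0.24 (edgeR adjusted p = 0.231).

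Pfkp, the platelet-type subunit, was 3.02-fold lower with VWF at 16 h. There the controls measured 117, 122, 98.3, 119 and 40.5 CPM and the VWF cultures 35.7, 31.2, 39.7, 25.5 and 34.1 CPM, while the LPS cultures held 181, 144, 152 and 78.6 CPM. Each VWF culture was below each control and each LPS culture, although control replicate 5 was close to the VWF range. The log2 fold change against control was -1.59 ± 0.28 (edgeR adjusted p = 0.00154), and -1.79 (edgeR adjusted p = 2.43e-06) without that control. Against LPS it was -2.06 ± 0.23 (edgeR adjusted p = 3.32e-05), and -2.26 to -1.91 when 1 culture was left out. The LPS and control cultures overlapped, with a log2 difference of 0.52 ± 0.33 (edgeR adjusted p = 0.221) that was -0.06 on library size alone.

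At 3.5 h no such fall against control was seen. Pfkp stood at 84.3, 78.03, 74.7, 119 and 98.9 CPM in controls, at 120, 95.0, 84.5, 92.7 and 138 CPM with VWF and at 113, 209, 156 and 159 CPM with LPS. VWF and control overlapped (log2 0.24 ± 0.16, edgeR adjusted p = 0.275), and LPS was 1.78-fold above control (log2 0.83 ± 0.18, edgeR adjusted p = 0.00171), under the fold threshold. VWF was 1.48-fold below LPS (log2 -0.56 ± 0.19, edgeR adjusted p = 0.0293), also under it and with ranges that overlapped. Leaving out 1 culture gave this difference an edgeR adjusted p of up to 0.0800. The effect of VWF on Pfkp differed between the times by -1.79 ± 0.33 on the log2 scale (edgeR adjusted p = 0.000230).

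Pfkm, the muscle-type subunit, had the lowest mean TPM of the PFK-1 genes in 5 of the 6 groups, and in the VWF group at 16 h it lay above Pfkp. At 3.5 h it ranged from 7.24 to 9.26 CPM over all 14 cultures, and no treatment comparison passed the test. By 16 h the controls held 17.5, 18.1, 18.8, 18.3 and 19.5 CPM and the VWF cultures 17.7, 19.1, 19.0, 19.5 and 20.8 CPM, against 10.96, 10.99, 11.82 and 11.01 CPM with LPS. All LPS cultures were below all others of that time, whereas VWF and controls overlapped (log2 0.05 ± 0.07, edgeR adjusted p = 0.684). LPS was 1.60-fold below control (log2 -0.68 ± 0.09, edgeR adjusted p = 0.000189) and VWF was 1.72-fold above LPS (log2 0.78 ± 0.09, edgeR adjusted p = 3.45e-05), both under the fold threshold. On library size alone both passed it, at -1.24 and 1.24.

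**Figure D2:**
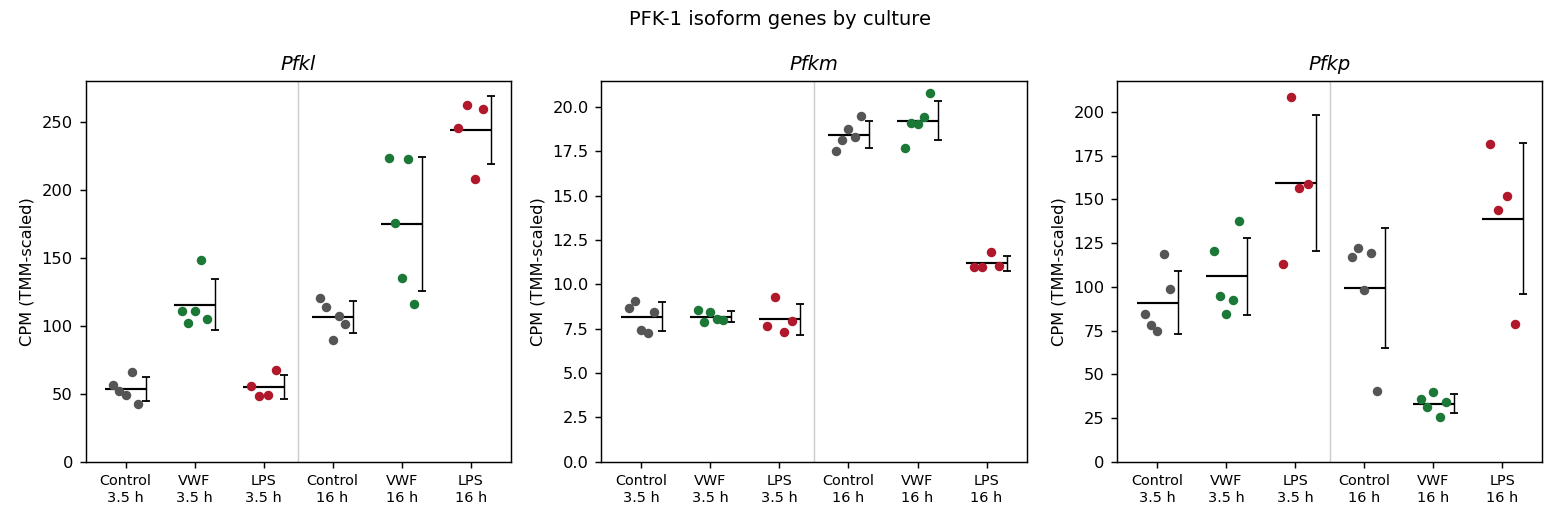
Pfkl, Pfkm and Pfkp (3 panels) in each of the 28 cultures, as CPM on the TMM scale (vertical axis, from 0), by treatment and time. Points are cultures, horizontal lines are group means and bars are SD. Pfkp with VWF at 16 h lies between 25.5 and 39.7 CPM, below every other culture, and Pfkm is higher at 16 h than at 3.5 h in every treatment, least with LPS.

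Pfkfb3, whose enzyme is known for a very high ratio of kinase to phosphatase activity, had the largest difference of any member. At 3.5 h it measured 86.8, 113, 86.0, 129 and 96.4 CPM in controls and 268, 242, 241, 222 and 281 CPM with VWF. LPS cultures stood at 94.4, 154, 153 and 144 CPM. Every VWF culture exceeded every other culture of that time, and LPS overlapped with control through its replicate 1. The rise with VWF was 2.49-fold (log2 1.32 ± 0.12, edgeR adjusted p = 3.89e-06). LPS was 1.36-fold above control (log2 0.44 ± 0.16, edgeR adjusted p = 0.0336), a value of -0.10 on library size alone, and VWF was 1.87-fold above LPS (log2 0.90 ± 0.14, edgeR adjusted p = 0.000515), both under the fold threshold. Leaving out 1 culture gave the LPS to control difference an edgeR adjusted p of up to 0.0952.

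At 16 h the order was another one. LPS cultures held 1037, 816, 905 and 613 CPM of Pfkfb3, controls 33.1, 34.3, 31.8, 32.3 and 14.2 CPM and VWF cultures 59.3, 51.1, 58.0, 44.3 and 36.0 CPM. The 3 groups did not overlap. LPS raised the gene 29.7-fold over control (log2 4.89 ± 0.29, edgeR adjusted p = 7.90e-07), and the log2 value was 4.71 without control replicate 5. VWF was 1.69-fold above control (log2 0.76 ± 0.24, edgeR adjusted p = 0.0391), under the fold threshold, and the log2 value was 0.59 (edgeR adjusted p = 0.00636) without that control. Leaving out other single cultures gave this difference an edgeR adjusted p of up to 0.0918. VWF was 16.9-fold below LPS (log2 -4.08 ± 0.20, edgeR adjusted p = 1.77e-07). Between the times the effect of LPS differed by 4.47 ± 0.34 on the log2 scale (edgeR adjusted p = 1.44e-08), and the VWF to LPS difference by -5.00 ± 0.26 (edgeR adjusted p = 1.63e-10). The effect of VWF differed by -0.52 ± 0.27 (edgeR adjusted p = 0.166).

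Pfkfb4 was lower with LPS than in controls. Control cultures at 3.5 h measured 28.6, 29.4, 33.0, 36.3 and 36.5 CPM, VWF cultures 23.5, 20.03, 22.0, 23.8 and 24.5 CPM and LPS cultures 8.55, 10.4, 9.93 and 9.01 CPM. None of the 3 groups overlapped another, in the order control, VWF, LPS. The fall with LPS was 3.40-fold (log2 -1.77 ± 0.11, edgeR adjusted p = 8.50e-08). VWF was 1.42-fold below control (log2 -0.51 ± 0.09, edgeR adjusted p = 0.000844), under the fold threshold, and 2.44-fold above LPS (log2 1.29 ± 0.10, edgeR adjusted p = 3.54e-06).

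By 16 h the VWF cultures, at 45.7, 47.3, 53.1, 43.2 and 50.5 CPM, overlapped the controls, at 45.3, 52.3, 51.2, 52.5 and 40.6 CPM. Their log2 difference was -0.02 ± 0.10 (edgeR adjusted p = 0.907), and its sign changed with the filter on low values. LPS cultures were lower than both, at 24.4, 24.6, 30.5 and 21.01 CPM. LPS was 1.88-fold below control (log2 -0.91 ± 0.13, edgeR adjusted p = 0.000239) and VWF was 1.91-fold above LPS (log2 0.94 ± 0.12, edgeR adjusted p = 8.20e-05), both close to the fold threshold, which each passed without replicate 3 of the LPS group at -1.01 and 1.04 and on library size alone at -1.47 and 1.39.

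Pfkfb2, a regulator best known from heart, was low in all groups. It measured 4.796, 2.85, 3.89, 4.44 and 3.30 CPM in the 3.5 h controls, 2.68, 1.29, 1.44, 2.17 and 1.65 CPM with VWF and 1.36, 0.665, 1.09 and 0.249 CPM with LPS. Both treated groups lay below all controls and overlapped each other. In the filterByExpr fit LPS was 4.29-fold below control (log2 -2.10 ± 0.37, edgeR adjusted p = 0.000423), a fall past both thresholds. VWF was 1.99-fold below control (log2 -0.99 ± 0.22, edgeR adjusted p = 0.00317), just short of the fold threshold, and 2.13-fold above LPS (log2 1.09 ± 0.40, edgeR adjusted p = 0.0465). That last call was lost without any 1 of 6 of the 9 cultures (LPS replicates 2, 3 and 4 and VWF replicates 1, 4 and 5), with log2 values between 0.80 and 1.41 and an edgeR adjusted p of up to 0.1004. At 16 h the LPS cultures, at 2.34 to 2.96 CPM, lay below the controls at 4.30 to 7.14 CPM (log2 -0.84 ± 0.21, edgeR adjusted p = 0.00819), and VWF cultures at 3.53 to 4.71 CPM overlapped the controls.

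Pfkfb1, the liver regulator, was low in all groups, with 0.309 to 2.27 CPM over the 28 cultures. It was called in 1 of the 6 treatment comparisons, VWF against LPS at 16 h, where VWF cultures held 1.83 to 2.21 CPM and LPS cultures 0.309 to 1.41 CPM without overlap (log2 1.16 ± 0.35, edgeR adjusted p = 0.0177 in the filterByExpr fit). Without LPS replicate 4, the lowest, the log2 value was 0.89 and no longer passed a fold of 2.

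**Figure D3:**
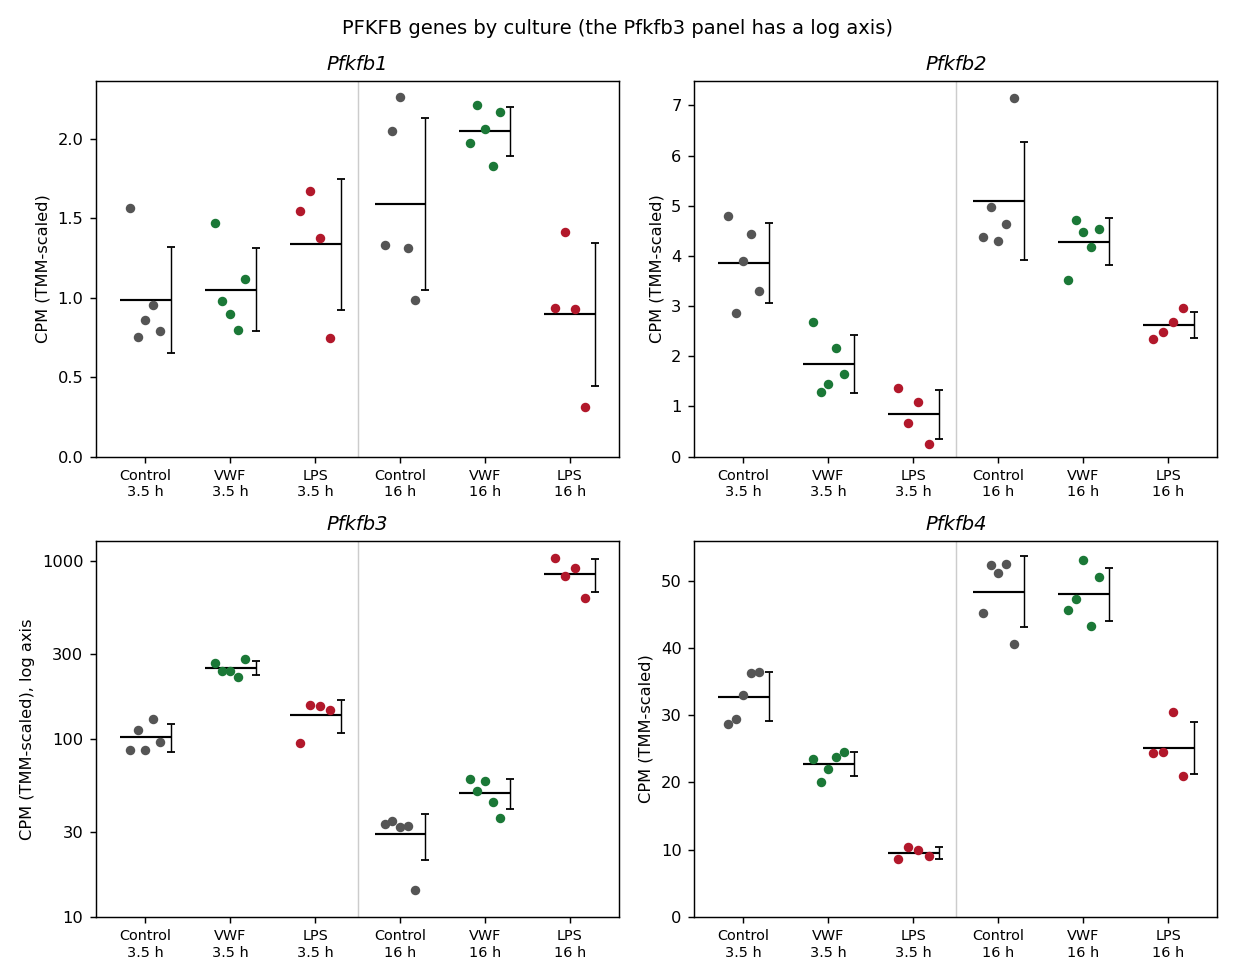
The 4 PFKFB genes (panels) in each of the 28 cultures, as CPM on the TMM scale, by treatment and time. The vertical axis starts at 0, except for Pfkfb3, whose axis is logarithmic. Points are cultures, horizontal lines are group means and bars are SD. Pfkfb3 with LPS at 16 h lies between 613 and 1037 CPM, above every other culture, and Pfkfb4 with LPS is below the control and VWF cultures of the same time.

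With time alone, in the controls, Pfkl rose 2.00-fold (log2 1.00 ± 0.13, edgeR adjusted p = 0.000212) and Pfkm 2.26-fold (log2 1.18 ± 0.10, edgeR adjusted p = 1.38e-05), while Pfkfb3 fell 3.51-fold (log2 -1.81 ± 0.23, edgeR adjusted p = 0.000196). These were 3 calls among 5 members tested, beside 9.08% of all genes called and 41.1% past the adjusted p alone. The Pfkl value sits at the fold threshold, and it was 0.96 with filterByExpr, 0.95 with no filter and 0.97 on library size alone, without a call. It also lost the call without any 1 of control replicates 2, 3 and 5 at 3.5 h or 1 and 2 at 16 h, with log2 values between 0.93 and 0.996. Pfkfb3 gave -1.63 (edgeR adjusted p = 3.89e-06) without control replicate 5 at 16 h.

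In VWF cultures 4 of 5 members were called between the times, beside 21.4% of all genes called and 67.9% past the adjusted p (24.4% called with filterByExpr). Pfkm rose 2.36-fold (log2 1.24 ± 0.08, edgeR adjusted p = 1.14e-07) and Pfkfb4 2.12-fold (log2 1.08 ± 0.09, edgeR adjusted p = 8.05e-07). Pfkp fell 3.17-fold (log2 -1.66 ± 0.16, edgeR adjusted p = 3.48e-06) and Pfkfb3 5.01-fold (log2 -2.32 ± 0.14, edgeR adjusted p = 9.35e-08). Pfkfb2 rose 2.30-fold in the filterByExpr fit (log2 1.2005 ± 0.1961, edgeR adjusted p = 0.000219).

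In LPS cultures 3 of 4 members rose, beside 28.1% of all genes called and 60.9% past the adjusted p (29.9% called with filterByExpr). Pfkl rose 4.52-fold (log2 2.18 ± 0.14, edgeR adjusted p = 2.76e-06), Pfkfb3 6.29-fold (log2 2.65 ± 0.21, edgeR adjusted p = 8.51e-06) and Pfkfb4 2.70-fold (log2 1.43 ± 0.14, edgeR adjusted p = 3.02e-05). Pfkfb2 rose 3.12-fold in the filterByExpr fit (log2 1.64 ± 0.43, edgeR adjusted p = 0.0101). Pfkp gave -0.17 ± 0.26 (edgeR adjusted p = 0.598), and 0.03 without LPS replicate 4 at 16 h. Pfkfb3 thus rose with time under LPS but fell with time in controls and under VWF.

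Tests of the change itself gave 1 call among 5 members for the VWF effect, Pfkp, beside 13.5% of all genes called and 32.6% past the adjusted p. For the LPS effect there were 2, Pfkl and Pfkfb3, beside 26.3% and 48.8% (24.6% called with filterByExpr, Pfkfb2 among them). The Pfkfb2 value, 1.24 on the log2 scale (edgeR adjusted p = 0.0326), lost its call without any 1 of 8 of the 18 cultures (control replicates 1 and 4 and LPS replicates 2 and 4 at 3.5 h, control replicates 1, 3 and 4 and LPS replicate 3 at 16 h), at a lowest log2 value of 0.952 and an edgeR adjusted p of up to 0.0672. The VWF to LPS difference changed for 3, Pfkl, Pfkp and Pfkfb3, beside 25% and 52.7% (23.6% called with filterByExpr, Pfkfb1 among them).

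Shares were computed from TPM, which is per length and allows genes of 1 culture to be set side by side. They do not depend on library scaling. They do depend on the length used, as does the order of genes in TPM. This was the merged exon length, 6675 bases for Pfkl and 13401 for Pfkp, whose longest transcripts have 3730 and 8681. In CPM, which is not per length, Pfkp was above Pfkl in the 3.5 h controls (means of 90.9 and 53.2). Within PFK-1, Pfkl took 46.3% ± 4.1 (SD, n = 5) of the summed TPM in the 3.5 h controls, Pfkp 39.3% ± 4.4 and Pfkm 14.4% ± 2.4. With VWF the Pfkl share was 62.4% ± 5.8, and all 5 VWF cultures (55.4% to 70.4%) lay above all 5 controls (39.0% to 48.9%), a difference of 16.1 points (exact permutation test, two-sided, p = 0.00794, the smallest that 5 against 5 allows). With LPS Pfkp was the largest, at 52.3% ± 7.3 (n = 4), and Pfkl took 37.0% ± 7.1, with ranges that overlapped the controls (exact permutation p = 0.0238 and 0.0317). Both shares stopped passing without any 1 of control replicates 1 to 4 or LPS replicates 2 and 3. Between VWF and LPS the Pfkl share differed by 25.4 points without overlap (exact permutation p = 0.00794).

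At 16 h Pfkl was the main PFK-1 gene in every group, with 55.4% ± 4.7 in controls, 75.0% ± 6.6 with VWF and 72.7% ± 6.1 with LPS. With VWF Pfkp took 7.57% ± 2.4 and Pfkm 17.4% ± 4.4, and with LPS Pfkp took 20.6% ± 6.0 and Pfkm 6.71% ± 0.73, with no overlap for either gene (exact permutation p = 0.00794 for both). The Pfkl shares of VWF and LPS differed by 2.28 points (exact permutation p = 0.563), and by 13.5 points in shares of raw counts, which are not per length (adjusted exact permutation p = 0.0571). The controls held 25.2% ± 7.1 Pfkp, from 12.6% in replicate 5 to 29.2%. The Pfkp share of LPS against control, -4.58 points (exact permutation p = 0.333), was -7.72 points without replicate 5 and then passed the test.

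Within PFKFB, Pfkfb3 and Pfkfb4 together made up most of the TPM and traded places. Pfkfb3 took 64.0% ± 4.0 in the 3.5 h controls, 86.4% ± 1.2 with VWF and 88.0% ± 2.6 with LPS, and Pfkfb4 took 32.2% ± 3.6, 12.2% ± 1.1 and 9.70% ± 1.4. Both treatments differed from control without overlap, by 22.4 points for VWF and 24.0 points for LPS in the Pfkfb3 share (exact permutation p = 0.00794 for each). The Pfkfb3 shares of VWF and LPS overlapped, with a difference of -1.55 points (exact permutation p = 0.270).

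The 16 h controls had the reverse makeup, with 25.4% ± 5.2 Pfkfb3 and 67.0% ± 3.5 Pfkfb4. With VWF the shares were 37.4% ± 5.1 and 56.3% ± 4.4, and with LPS 95.0% ± 0.76 and 4.48% ± 0.70. Pfkfb3 thus took the larger share in all 4 LPS cultures and Pfkfb4 in all 10 others. VWF against control gave 11.9 points in the Pfkfb3 share, with ranges that overlapped (exact permutation p = 0.0159), and 9.67 points without control replicate 5. The Pfkfb3 to Pfkfb4 ratio of TPM averaged 2.02 in the 3.5 h controls, 7.12 with VWF and 9.23 with LPS, and 0.383, 0.672 and 21.7 at 16 h. The summed PFKFB TPM over the summed PFK-1 TPM was 1.22 ± 0.10, 1.40 ± 0.16 and 0.907 ± 0.13 at 3.5 h in control, VWF and LPS cultures, and 0.516 ± 0.056, 0.528 ± 0.12 and 2.33 ± 0.45 at 16 h.

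In all, 42 tests of shares were made between treatments and 21 between times. After Benjamini-Hochberg adjustment over each family, exact p values of 0.00794 became 0.0145 and 0.0152, and 5 to 7 of the 7 shares passed in each comparison. Shares within a family sum to 100%, so the tests of its members are not independent.

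**Figure D4:**
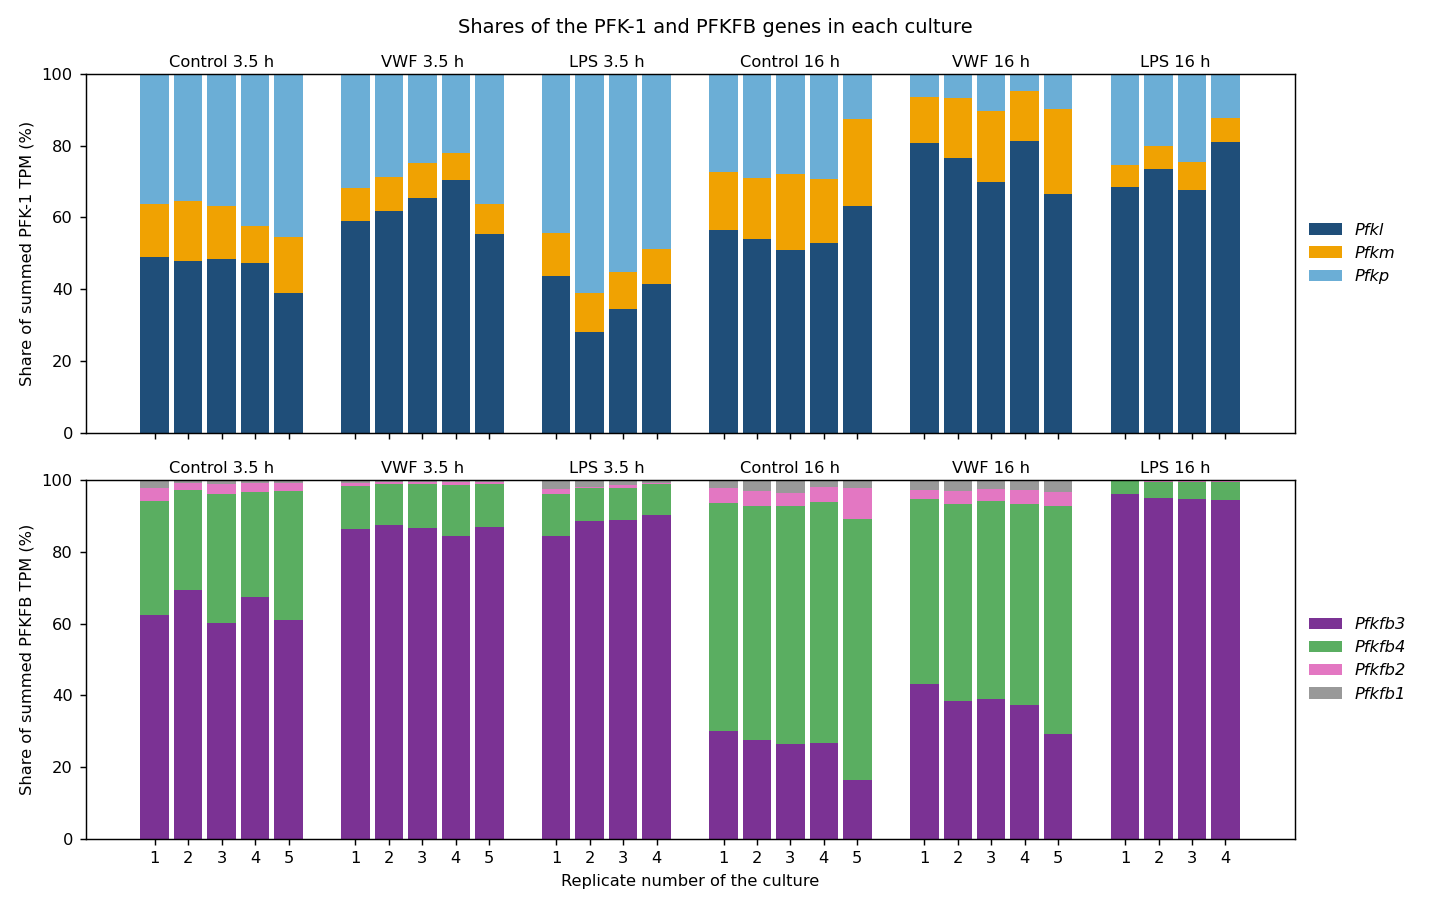
Share of each PFK-1 gene in the summed PFK-1 TPM (top) and of each PFKFB gene in the summed PFKFB TPM (bottom), in percent, for each culture (bars, numbered by replicate) of the 6 groups. Pfkl averages 75.0% with VWF and 72.7% with LPS at 16 h, and Pfkfb3 averages 95.0% with LPS but 25.4% in controls at that time.

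By level in TPM, Pfkfb3 was first of the 7 genes in all 3 groups at 3.5 h, with a mean of 43.1 TPM in controls, 91.9 TPM with VWF and 36.3 TPM with LPS. In controls its range overlapped that of Pfkl, the second, at 25.4 TPM, and Pfkl, Pfkp (21.8 TPM) and Pfkfb4 (21.4 TPM) overlapped in turn. With VWF Pfkl (47.3 TPM), Pfkp (22.1 TPM), Pfkfb4 (12.9 TPM) and Pfkm (6.75 TPM) followed in steps that did not overlap. With LPS Pfkp (23.9 TPM) and Pfkl (16.4 TPM) came next, the first of them overlapping both neighbours, ahead of Pfkm (4.83 TPM) and Pfkfb4 (3.91 TPM), which also overlapped. Pfkfb1 and Pfkfb2 were last in each group, at 0.232 to 1.69 TPM.

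At 16 h Pfkl led in controls (46.0 TPM) and with VWF (70.3 TPM), followed by Pfkfb4 (28.9 and 27.0 TPM). In controls Pfkp (22.2 TPM) and Pfkm (15.8 TPM) came ahead of Pfkfb3 (11.5 TPM), and each range overlapped the next. With VWF Pfkfb3 (18.1 TPM) overlapped Pfkfb4 above it and Pfkm (15.7 TPM) below it, and Pfkp followed below them, at 6.85 TPM, without overlap. With LPS Pfkfb3 stood first at 232 TPM and Pfkl second at 74.1 TPM, without overlap, ahead of Pfkp (21.8 TPM), Pfkfb4 (10.7 TPM) and Pfkm (6.88 TPM).

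**Figure D5:**
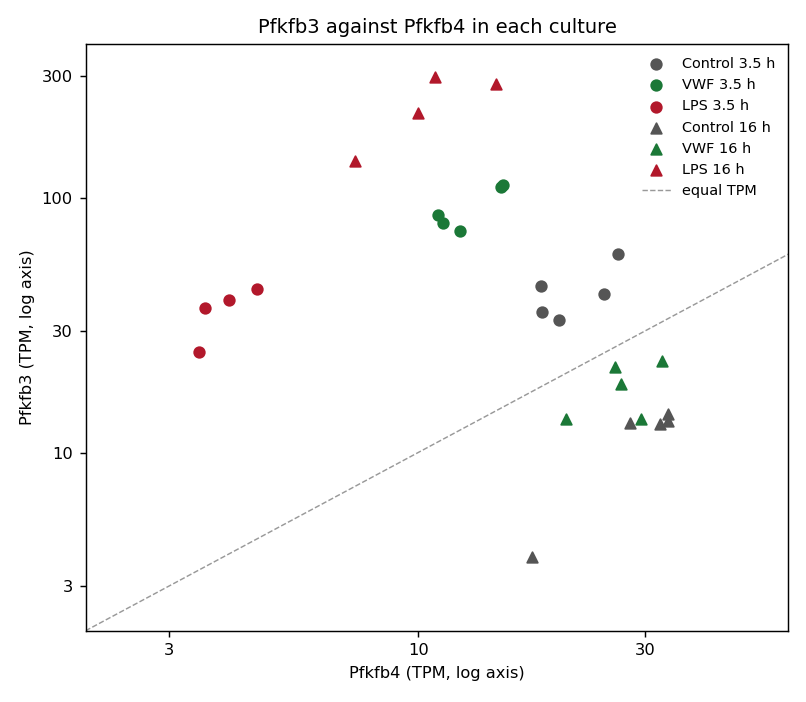
TPM of Pfkfb3 (vertical, log axis) against TPM of Pfkfb4 (horizontal, log axis) in each of the 28 cultures. Circles are 3.5 h and triangles 16 h, grey is control, green VWF and red LPS, and the dashed line marks equal TPM. All 14 cultures at 3.5 h and the 4 LPS cultures at 16 h lie above the line, and the 10 control and VWF cultures at 16 h lie below it.

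Of 19 other glycolysis genes, 17 or 18 were tested in each comparison. With VWF at 3.5 h 1 was called, Hk2, a hexokinase that traps glucose in the cell, which rose from 56.5 to 116 CPM (log2 1.06 ± 0.23, edgeR adjusted p = 0.00309). The median of the tested genes was -0.07 on the log2 scale, beside -0.01 for all genes. With LPS at 3.5 h Hk2 (log2 1.82 ± 0.25) and the myeloid hexokinase Hk3 (1.17 ± 0.11) rose and the mutase Pgam1 fell (-1.23 ± 0.20), at edgeR adjusted p values of 6.23e-05, 2.17e-06 and 0.000236. Between VWF and LPS at that time the enolase Eno2 (1.17 ± 0.12) and the glucose transporter Slc2a1 (1.01 ± 0.15) were higher with VWF, and the lactate transporter Slc16a1 (-1.59 ± 0.10) and Hk3 (-1.02 ± 0.11) lower, at edgeR adjusted p values of 1.98e-05, 0.000301, 7.66e-07 and 2.46e-05. Of all genes tested at 3.5 h, 14.7% were called for VWF against control, 24.5% for LPS against control and 11.4% for VWF against LPS.

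At 16 h Hk2 was again the only gene of the 18 tested that was called with VWF against control (log2 1.28 ± 0.23, edgeR adjusted p = 0.00193). With LPS 7 were called higher and 2 lower, and the median of the list was 0.68 on the log2 scale, beside -0.03 for all genes. Of all genes tested at 16 h, 8.71% were called for VWF against control, 27.6% for LPS against control and 25.5% for VWF against LPS. The largest rises were those of Hk3 (2.22 ± 0.14, edgeR adjusted p = 8.51e-07), the lactate exporter Slc16a3 (1.74 ± 0.22, edgeR adjusted p = 0.000126) and Hk2 (1.501 ± 0.2575, edgeR adjusted p = 0.000822). The aldolase Aldoc (-2.48 ± 0.16, edgeR adjusted p = 1.08e-06) and the lactate dehydrogenase subunit Ldhb (-2.02 ± 0.14, edgeR adjusted p = 2.11e-06) fell. Between VWF and LPS 5 were called lower with VWF, led by Slc16a3 (-1.89 ± 0.30, edgeR adjusted p = 0.000363), and 2 higher, Ldhb (2.49 ± 0.20, edgeR adjusted p = 3.26e-06) and Aldoc (2.29 ± 0.16, edgeR adjusted p = 1.17e-06). With time, 5 rose and 2 fell in controls, 9 rose and 2 fell with VWF and 11 rose and 3 fell with LPS. Of all genes tested, 9.08%, 21.4% and 28.1% were called in these time comparisons.

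A second list of 12 genes held the opposing bisphosphatases and the hypoxia and energy sensors, of which 7 or 8 were tested. In the treatment comparisons at 3.5 h and for VWF against control at 16 h, the 7 were Hif1a, Egln1, Egln2, Vhl, Arnt, Prkaa1 and Tigar. The opposing bisphosphatases Fbp1 and Fbp2 were not tested there. No gene tested from this list was called by edgeR's test in the 3 comparisons at 3.5 h or for VWF against control at 16 h. There 3, 6, 6 and 1 passed the adjusted p alone, beside 43.6%, 65.7%, 50.2% and 27.7% of all genes tested. For VWF against control at 3.5 h, 2 of the 3 were higher and 1 lower. Hif1a, the oxygen-regulated subunit of HIF-1, rose there from 155 to 284 CPM (log2 0.89 ± 0.10, edgeR adjusted p = 1.61e-05), under the fold threshold. With VWF at 16 h it was the 1 that passed (log2 0.44 ± 0.13, edgeR adjusted p = 0.0310). With LPS at 16 h Hif1a rose from 79.2 to 203 CPM (log2 1.39 ± 0.12, edgeR adjusted p = 6.32e-06), and the HIF prolyl hydroxylase Egln3 rose from 3.36 to 12.6 CPM (log2 1.94 ± 0.34, edgeR adjusted p = 0.000908). Between VWF and LPS at 16 h Egln3 was called lower with VWF (log2 -1.88 ± 0.45, edgeR adjusted p = 0.00515).

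Over the 28 cultures, the genes whose log2 CPM followed a member most closely were searched among 8867 genes that reached 10 TPM. Pfkfb3 was followed by Riok3 (Pearson r = 0.962, Spearman rho = 0.920), Mcl1 (r = 0.945, rho = 0.924) and Flrt3 (r = 0.939, rho = 0.930). For Pfkfb4 they were Agfg2 (r = 0.961, rho = 0.921), Msh6 (r = 0.961, rho = 0.955) and 2810006K23Rik (r = 0.960, rho = 0.920). For Pfkl they were Dnmt3l (r = 0.946, rho = 0.922), Tmem63a (r = 0.920, rho = 0.882) and Pid1 (r = 0.918, rho = 0.891), for Pfkp Alcam (r = 0.947, rho = 0.945), Sestd1 (r = 0.921, rho = 0.844) and Plek (r = 0.908, rho = 0.825), and for Pfkm Haghl (r = 0.942, rho = 0.829), E2f1 (r = 0.942, rho = 0.893) and Cep78 (r = 0.941, rho = 0.777). The 28 points share 6 groups, so these values describe likeness across groups and carry no test.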

How the data were processed

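The authors aligned the reads to the mouse genome (STAR and GRCm38 per the labels) and deposited raw counts per gene for the 28 cultures; the counting tool's strand setting, annotation and treatment of reads with several matches were not given in the sources used here. All other values were computed from these deposited counts. Symbols, exon lengths for TPM and overlaps came from the GENCODE M21 annotation of GRCm38, and promoters from RefSeq (GRCm38.p6). Differences were tested with edgeR 4.0.16 (R 4.3.3), robust quasi-likelihood fits with TMM factors and only the groups compared, on genes reaching 10 TPM in at least 1 culture, at an adjusted p under 0.05 and a fold over 2. Members under that level were fitted with filterByExpr. Shares were compared by two-sided exact permutation tests (numpy 2.4.6). The 7 members were named by rule in full, and from the other lists the called genes with the largest changes. The members and lists were chosen with earlier results of these data known.

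Counts ranged from 41131209 to 77699206 per culture, so counting error limits mainly Pfkfb1 and Pfkfb2. No 2 cultures of a group agreed within sampling noise (chi-square per degree of freedom of at least 24.8 over 52 pairs). For LPS and VWF at 16 h, cultures with equal replicate numbers had correlated deviations from the group means (0.16 to 0.78 over 4 pairs). In other 2 groups the lowest such correlation lay between -0.67 and 0.082. Cultures with unequal numbers were not compared, and whether equal numbers pair cultures is not given in the labels. The main tests did not use the numbers. The fits were tested on simulated data with known changes in both directions and the same spread for all genes. How they perform at the spread and composition of these cultures was not tested. Alternatives were DESeq2 1.42.0, median-of-ratios and library size scaling, other filters, no fold threshold, all groups in one fit, a replicate block, shares of raw counts or of the longest transcript, and leaving out each culture.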

Additional observations from a re-analysis of the deposited data

Results flagged for a closer look

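Of 42 sets of cultures (7 genes in 6 groups), 6 had 1 culture far from the others by Dixon's test, where chance at 1 in 20 gives 2.1. Pfkl was 148.1 CPM in VWF 3.5 h replicate 4 (others 101.8 to 111.1), and Pfkm was 11.82 CPM in LPS 16 h replicate 3 (others 10.96 to 11.01). Pfkfb1 was 1.563 CPM in control 3.5 h replicate 1 (others 0.7528 to 0.956). In control 16 h replicate 5, Pfkfb2 was 7.141 CPM (others 4.303 to 4.977) and Pfkfb3 was 14.18 CPM (others 31.83 to 34.31). Pfkfb3 was 94.41 CPM in LPS 3.5 h replicate 1 (others 144.2 to 154.3).

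The effects at 16 h and 3.5 h differed past both thresholds, by edgeR's test of the difference, for 8 values on the log2 scale. The VWF effect on Pfkp changed by -1.79. The LPS effect changed by 1.18 for Pfkl, 1.24 for Pfkfb2 and 4.47 for Pfkfb3, of which the Pfkfb2 call was lost without any 1 of 8 of the 18 cultures. The VWF to LPS difference changed by -1.59 for Pfkl, -1.52 for Pfkp, 1.56 for Pfkfb1 and -5.00 for Pfkfb3.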

How the results depend on the processing

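With DESeq2 the number of members called stayed within 1.5 times in 12 of 12 comparisons, and the replicate block changed none of these numbers. On library size alone 1 member was called for VWF against control at 3.5 h (2 with TMM) and 4 for VWF against LPS at 16 h (2 with TMM), and LPS against control at 16 h gave 1 higher and 2 lower (2 higher with TMM). With no fold threshold there were 3 calls for LPS against control and 4 for VWF against LPS at 3.5 h, 3 for VWF against control, 4 for LPS against control and 4 for VWF against LPS at 16 h, and 2, 4 and 5 for the changes with time of the VWF effect, the LPS effect and the VWF to LPS difference. LPS against control at 3.5 h gave 2 with filterByExpr and 2 with no filter, since Pfkfb2 was then tested. Over all genes, 679 to 2301 were called per comparison, 1362 to 4116 with filterByExpr and 1378 to 4542 with no filter, where more genes were tested. On library size alone the split of calls moved by over 10 points for LPS against control at 3.5 h, from 1047 higher and 963 lower to 704 and 2213, and at 16 h, from 1221 and 989 to 782 and 2319. For VWF against control at 3.5 h it moved from 746 and 458 to 608 and 652, for VWF against LPS at 3.5 h from 353 and 503 to 772 and 334 and at 16 h from 837 and 1095 to 1772 and 687, and for the change of their difference with time from 879 and 1173 to 1176 and 893. Leaving out 1 culture gave 1 to 2 members called for VWF against LPS at 3.5 h.

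Some small log2 fold changes had the other sign under an alternative, and the cause was not tested. On library size alone, VWF against control at 3.5 h gave -0.19 for Pfkm and -0.0841 for Pfkfb1, LPS against control at 3.5 h gave -0.47 for Pfkl, -0.52 for Pfkm, -0.0563 for Pfkfb1 and -0.10 for Pfkfb3, VWF against LPS at 3.5 h gave 0.34 for Pfkm, VWF against control at 16 h gave -0.0046 for Pfkm, and LPS against control at 16 h gave -0.0597 for Pfkp. With the replicate block Pfkl for LPS against control at 3.5 h was -0.0127 and Pfkm for VWF against LPS at 3.5 h was 0.0065. The latter was 0.0035 with no filter. Pfkfb4 for VWF against control at 16 h was 0.0392 with filterByExpr and 0.0477 with no filter. Leaving out 1 culture gave ranges across 0 of -0.0447 to 0.159 for Pfkl and -0.002 to 0.1109 for Pfkm (LPS against control, 3.5 h), -0.0443 to 0.0583 for Pfkm (VWF against LPS, 3.5 h), -0.0807 to 0.0245 for Pfkfb4 (VWF against control, 16 h) and -0.32 to 0.0312 for Pfkp (LPS, 16 h against 3.5 h).

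From raw counts, 3 shares passed for VWF against LPS at 3.5 h, and the Pfkm share for VWF against control at 16 h differed by 0.295 points instead of -1.99. With the replicate number as a block, a sign-flip test over 4 or 5 pairs cannot pass after adjustment, and 0 shares passed in each of the 9 comparisons. Leaving out 1 culture, 3 to 5 shares passed for LPS against control and 2 to 5 for VWF against LPS at 3.5 h, and the Pfkfb2 share of the latter differed by -0.109 to 0.259 points.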
